A study of Mus musculus with 4 samples.

Results

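The genes described here are 59 components and feedback genes of the Wnt pathway, among 19938 named genes measured on 4 arrays. They were taken by symbol: every Wnt, Fzd, Dkk and Sfrp gene that carries a family number, and 21 further genes named one by one, each through a probe set annotated to a single gene. A probe set is the group of array probes that reports a transcript. Each of the 58 protein-coding genes of these names in the RefSeq table had such a probe set, and the 59th is Fzd10os, a transcript of the strand opposite Fzd10. By role there were 19 Wnt ligands, 1 enzyme of ligand processing, 12 receptors and co-receptors, 8 secreted antagonists, 3 Dishevelled genes, 6 genes of beta-catenin and its destruction complex, 9 feedback genes and the opposite-strand transcript. The symbols, not measured values, decided membership.

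All cells came from bone marrow LMPPs of wild-type C57BL/6 mice. Tcf1 cells were LMPPs given the Tcf1-VEX retrovirus and grown on OP9, a stromal line without Notch ligand, then sorted on day 10 as live CD45.2+ cells without Mac1 or Gr1 and with Thy1 and CD25 (2 arrays, biological replicates). Control cells were LMPPs given the empty VEX vector, grown on OP9 that expresses the Notch ligand DL4 and sorted in the same way on day 10 (1 array). LMPPs, lymphoid-primed multipotent progenitors sorted as lineage marker negative, Sca+, kit+ and Flt3high, were pooled and held for 48 hours in the stimulation medium used for transduction, with no culture on stroma stated (1 array). Transduced cells carried VEX and were sorted for it before culture. Vector and stroma changed together between Tcf1 and control cells, and time, medium, stroma and gate changed together between either of them and LMPPs, so the parts of these factors cannot be told apart.

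Wnt proteins are secreted ligands that Porcn, an acyltransferase, equips with the lipid they need to bind Frizzled receptors and the co-receptors Lrp5 and Lrp6. Without ligand, a complex built on Axin and Apc lets Gsk3 phosphorylate beta-catenin, which is then degraded. With ligand, Dishevelled proteins help to inactivate that complex, and beta-catenin accumulates and binds Tcf/Lef factors in the nucleus. Tcf1, the factor introduced here and encoded by Tcf7, is one of them and is required for normal early T cell development. Genes such as Axin2, Nkd1, Rnf43, Znrf3, Notum, Apcdd1 and Sp5 are induced by the pathway in many tissues, and most of them dampen it. Tcf7 itself was not analysed here, because no probe set named it alone.

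Promoter windows of 3 members are shown because Tcf/Lef factors bind DNA with the core CTTTGA, often followed by T, and because the array values below turn on 2 of them. The windows of 300 bases span an annotated start, mostly on its upstream side, on the plus strand of GRCm38.p6, and come from a RefSeq promoter table. Capitals mark CTTTGA or CTTTGAT on either strand. Variants of this core, such as CTTTGT, were not searched, so they are neither marked nor counted. Sfrp2 (chr3:83766071-83766370) was the member that rose by the most, and Axin2 (chr11:108920099-108920398) is a widely used reporter of the pathway. Sp5 (chr2:70474673-70474972) is a target whose signal stayed within a narrow range, below the median gene of each array.
Sfrp2: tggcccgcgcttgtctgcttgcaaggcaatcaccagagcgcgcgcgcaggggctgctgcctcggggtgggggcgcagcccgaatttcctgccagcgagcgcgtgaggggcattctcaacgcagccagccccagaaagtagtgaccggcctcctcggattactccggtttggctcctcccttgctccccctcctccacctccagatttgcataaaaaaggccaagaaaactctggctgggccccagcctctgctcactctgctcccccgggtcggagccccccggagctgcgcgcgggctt
Axin2: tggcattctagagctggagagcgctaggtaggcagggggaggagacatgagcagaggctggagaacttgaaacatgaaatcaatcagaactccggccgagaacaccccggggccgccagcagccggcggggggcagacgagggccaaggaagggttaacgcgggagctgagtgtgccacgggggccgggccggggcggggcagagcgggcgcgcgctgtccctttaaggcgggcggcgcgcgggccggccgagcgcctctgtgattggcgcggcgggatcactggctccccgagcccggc
Sp5: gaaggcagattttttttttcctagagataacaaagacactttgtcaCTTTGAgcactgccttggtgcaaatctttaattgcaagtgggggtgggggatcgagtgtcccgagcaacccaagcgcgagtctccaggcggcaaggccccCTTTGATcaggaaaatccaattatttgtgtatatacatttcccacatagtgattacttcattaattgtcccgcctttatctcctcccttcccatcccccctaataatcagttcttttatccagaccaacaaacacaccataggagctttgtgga

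The Sp5 window held CTTTGA at position 47 and CTTTGAT at position 147, counted from 1 at its 5′ end, both on the strand of the gene. These letters are not in the windows of Sfrp2 and Axin2, which says nothing of binding elsewhere. The table had 43 windows for 37 of the 59 members. CTTTGAT was in 3 of these windows (6.98%), those of Sp5, Wnt11 and Wnt5b, against 3.73% of all 32851 windows. The shorter CTTTGA, which includes each match of the longer motif, was in 7 member windows (16.3%), against 16.0% of all windows. Dkk1, Fzd1, Gsk3a and Gsk3b held only the shorter form. A match is a run of letters and not a measured binding site.

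Values are log2 signals from RMA, a method that corrects background, scales arrays to each other and combines probes. They allow a gene to be compared between arrays, but not with another gene, because probes differ in brightness. Over the 19938 genes the array medians lay between 7.47 and 7.59. The 25th percentile was 6.21 and 6.19 in Tcf1 cells, 6.12 in control cells and 6.13 in LMPPs. The 75th percentile was 9.12 and 9.32 in Tcf1 cells, 9.33 in control cells and 9.35 in LMPPs. Of the 59 members, 33 lay below the array's median gene on each array, 5 below its 25th percentile on each and 7 above its 75th percentile on each. No detection calls were used here, so a dim value can be background. The sort labels were checked against markers. Of 13 T lineage markers, Thy1 and Il2ra (CD25) among them, 8 were higher and 1 lower in Tcf1 cells than in LMPPs by limma at an adjusted p under 0.05, and 10 were at least 2-fold higher in control cells than in LMPPs. Against control cells, 0 of the 13 were higher in Tcf1 cells and 7 were lower, Cd3g by the most (-6.44). The 11 measured LMPP markers averaged 10.21 and 10.32 in the Tcf1 arrays, 8.82 in the control array and 10.52 in the LMPP array. Of these 11, 6 were higher and 1 lower in Tcf1 cells than in control cells. Of 18 macrophage markers, 6 were higher in Tcf1 cells than in LMPPs and 9 higher than in control cells, and none was lower, in cells gated without Mac1.

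Few members differed between groups. Differences were fitted with limma on group means over all 19938 genes, and a gene passed at a Benjamini-Hochberg adjusted p under 0.05. Only the Tcf1 replicates informed its error, with 1 residual degree of freedom. The control and LMPP arrays were assumed to have the same error. A p-value thus holds no spread among control or LMPP samples. Its error joins the gap between the 2 Tcf1 replicates of a gene with that over all genes, and it speaks for these samples alone. Against LMPPs, 2 of 59 members passed (3.39%), where 3.06% of all genes did: Sfrp2 rose and Fzd6 fell. Against control cells, 1 of 59 passed (1.69%), where 4.38% of all genes did: Apcdd1, which was lower in Tcf1 cells. At an unadjusted p under 0.05 there were 6 members in each comparison (10.2%), where 14.5% of all genes stood against LMPPs and 14.1% against control cells (limma). At least 2-fold apart were 1 member against LMPPs (1.69%; 2.90% of all genes) and 0 against control cells (3.81% of all genes). Control cells and LMPPs had 1 array each and no test, and there 1 of 59 members, Fzd6, was at least 2-fold apart (1.69%), where 5.53% of all genes were, 3.17% higher and 2.36% lower. In each of the 3 comparisons the members' share was thus near or under that of genes at large.

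**Figure D1:**
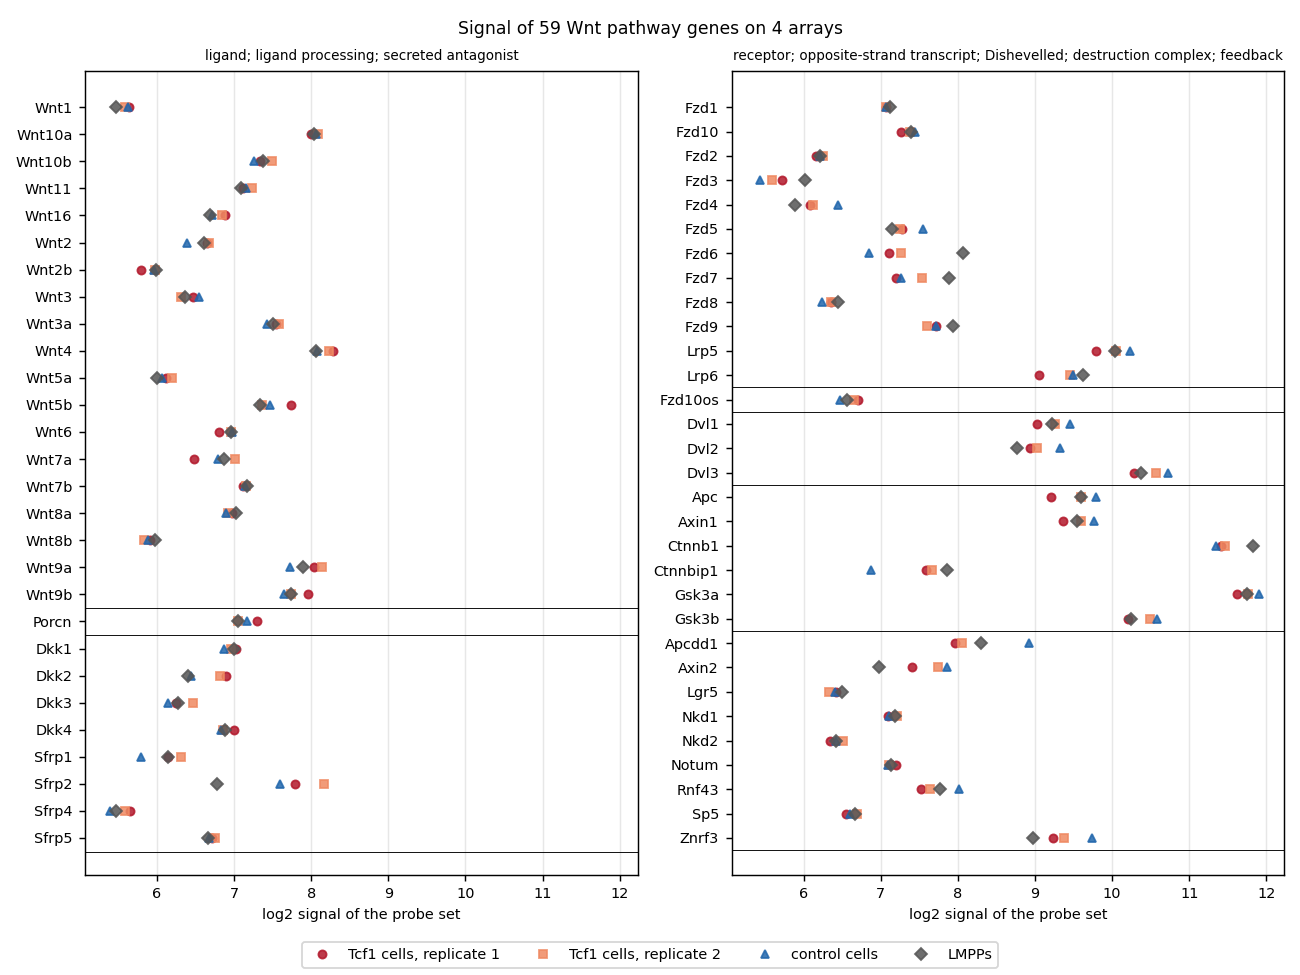
Log2 signal of each of the 59 members (rows, in 2 panels by role) on the 4 arrays: Tcf1 replicates 1 and 2, control and LMPP. For most genes the 4 points lie close together, and the widest spreads over arrays are those of Sfrp2 (1.38) and Fzd6 (1.22).

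The spread over the 4 arrays was under 0.5 on the log2 scale for 45 members (76.3%), against 70.2% of all genes. It reached 1 for 2 members (3.39%), Sfrp2 and Fzd6, against 8.50% of all genes. Medians of the members' differences were 0.01 for Tcf1 cells minus LMPPs, 0.01 for Tcf1 cells minus control cells and -0.01 for control cells minus LMPPs, beside medians over all genes of 0.00, 0.02 and -0.01. The absolute difference had a 90th percentile of 0.37 for members and 0.53 for all genes against LMPPs, and of 0.39 and 0.55 against control cells. Between control cells and LMPPs it was 0.61 and 0.71. The median absolute difference was 0.111 for members and 0.146 for all genes against LMPPs. Against control cells it was 0.154 and 0.144, so there the members' median was not the smaller. Between control cells and LMPPs it was 0.132 and 0.157. The 2 Tcf1 replicates were at most 0.53 apart in any member, in Wnt7a. Replicate 2 read higher than replicate 1 in 39 members (66.1%), as it did in 67.9% of all genes.

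**Figure D2:**
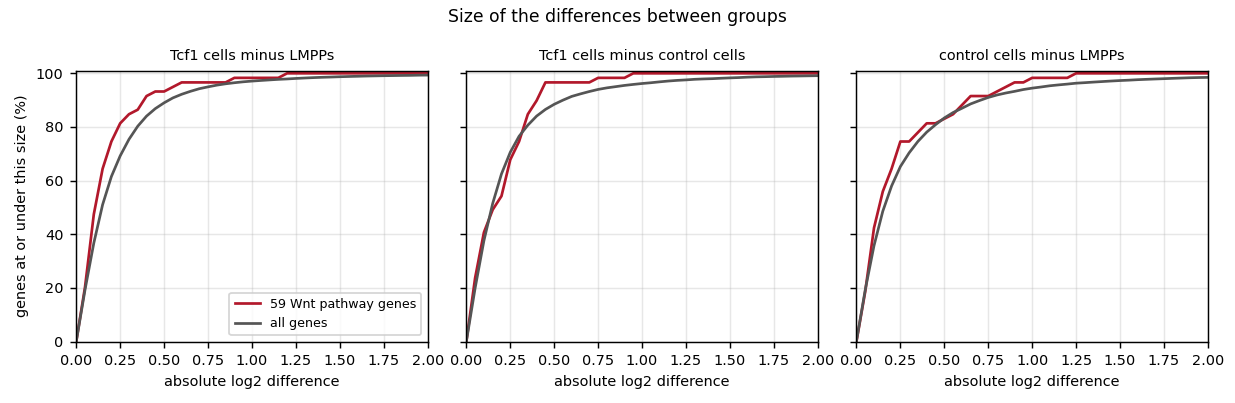
Share of genes (y axis, %) whose absolute log2 difference is at or under the value on the x axis, for the 59 members and for all 19938 genes, in 3 comparisons. The members are part of all genes, so their line cannot reach 100% later. At 0.2 the members' line stands at 74.6% against 61.5% of all genes (Tcf1 cells minus LMPPs). There it stands at 54.2% against 62.5% (Tcf1 minus control cells) and 64.4% against 58.0% (control cells minus LMPPs). At 0.5 the pairs, in the same order, are 93.2% and 89.0%, 96.6% and 88.4%, and 83.1% and 83.4%.

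The 19 Wnt ligands, which start the signal, differed little between the arrays, and for 18 of them the spread over all 4 was under 0.5. Against LMPPs their differences ran from -0.13 to 0.21, and none passed (smallest adjusted p = 0.751, limma). Against control cells they ran from -0.15 to 0.37, and none passed either (smallest adjusted p = 0.385, limma). Between control cells and LMPPs they ran from -0.22 to 0.18. Of the ligands, 13 read below the array's median gene on each array, and none above its 75th percentile.

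Wnt9a had the ligands' largest difference from control cells, with 8.04 and 8.14 in Tcf1 cells against 7.72 in control cells and 7.90 in LMPPs. Both Tcf1 arrays read above the others, by 0.37 over control cells, with a 95% interval from -0.02 to 0.76. Wnt2 read 6.65 and 6.67 in Tcf1 cells, 6.39 in control cells and 6.61 in LMPPs, so that the control array was the low one. Wnt5b, a ligand of the branches that do not act through beta-catenin, read 7.74 and 7.36 in Tcf1 cells, 7.47 in control cells and 7.34 in LMPPs. Its replicates lay on both sides of the control array. The replicates of Wnt7a, at 6.48 and 7.01, enclosed both the control value of 6.79 and the LMPP value of 6.87. Wnt4 was the 1 member with 2 probe sets. The brighter read 8.28 and 8.23 in Tcf1 cells, 8.08 in control cells and 8.07 in LMPPs, and the dimmer 7.11 and 7.30, 7.24 and 7.36 in the same order, so the probe sets disagreed in direction. Porcn, the acyltransferase of the ligands, differed by 0.13 from LMPPs and by 0.01 from control cells (SE 0.18 for both).

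Of the 12 receptors and co-receptors, 1 was lower in Tcf1 cells than in LMPPs, 0 were higher and 11 did not pass in limma, where 1.31% of all genes were lower and 1.75% higher. At an unadjusted p under 0.05, 2 were lower and 0 higher, where 14.5% of all genes stood in either direction. Against control cells 0 of the 12 passed, and 0 had an unadjusted p under 0.05 in limma, where 14.1% of all genes did. Fzd6, a Frizzled receptor studied mainly in planar cell polarity, read 7.10 and 7.26 in Tcf1 cells, 6.85 in control cells and 8.07 in LMPPs. Every array of cultured T lineage cells lay below the LMPP array. Fzd6 fell by 0.89 in Tcf1 cells against LMPPs (SE 0.17, 95% interval from -1.29 to -0.49, adjusted p = 0.0437, limma). Control cells minus LMPPs came to -1.22, without replicates. Between Tcf1 and control cells it differed by 0.33 and did not pass (95% interval from -0.07 to 0.73). In these bulk samples fewer cells with a transcript and less of it per cell cannot be told apart. The mean of the LMPP markers given above stood in the same order of arrays as Fzd6, though single markers did not all follow it. Kit read 11.17 and 11.27 in Tcf1 cells, 11.39 in control cells and 9.68 in LMPPs. The part of these markers in the Fzd6 result was not tested.

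Fzd7, a receptor of beta-catenin signalling in stem cells of several tissues, was also highest in LMPPs. It read 7.19 and 7.53 in Tcf1 cells, 7.27 in control cells and 7.88 in LMPPs, and its difference from LMPPs of -0.52 did not pass (95% interval from -0.98 to -0.05, adjusted p = 0.284, limma). Fzd3, another receptor of planar polarity, read 5.72 and 5.59 in Tcf1 cells, 5.44 in control cells and 6.01 in LMPPs, near the low end of each array. Fzd4, which also binds the ligand Norrin, ran the other way, with 6.08 and 6.12 in Tcf1 cells, 6.45 in control cells and 5.89 in LMPPs. Neither passed in either comparison. The co-receptors were bright on all arrays. Lrp5 read 9.80 and 10.05 in Tcf1 cells, 10.23 in control cells and 10.04 in LMPPs, and Lrp6 read 9.06 and 9.45, 9.49 and 9.62 in that order. Fzd10os, not itself a receptor gene, ranged from 6.47 to 6.70 over the arrays, and how far its probes respond to Fzd10 transcripts was not tested.

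**Figure D3:**
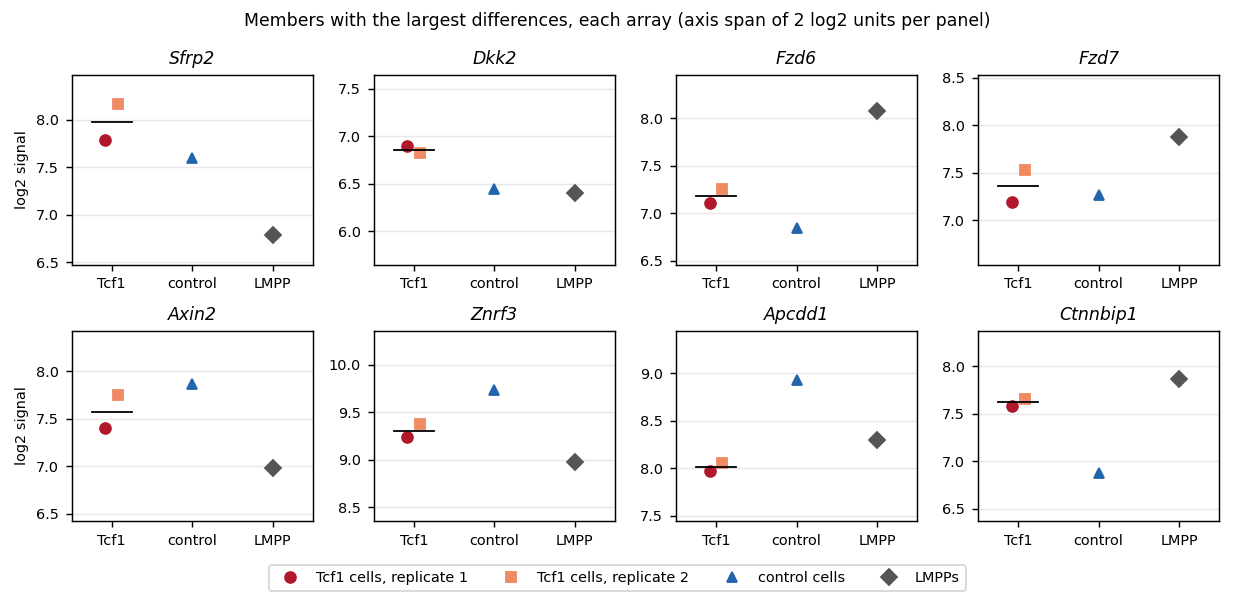
Log2 signal (y axis, a span of 2 units in each panel) of 8 members in Tcf1 cells (2 arrays, bar at their mean), control cells and LMPPs (1 array each). Fzd6 and Fzd7 are highest in LMPPs, Sfrp2 and Axin2 lowest there, Apcdd1 is highest and Ctnnbip1 lowest in control cells.

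Most of the 8 secreted antagonists bind ligands (Sfrp) or co-receptors (Dkk). Among the 8, 1 rose in Tcf1 cells against LMPPs, 0 fell and 7 did not pass, where 1.75% of all genes rose and 1.31% fell. Sfrp2, a soluble Frizzled-related protein, read 7.78 and 8.17 in Tcf1 cells, 7.60 in control cells and 6.78 in LMPPs. The LMPP array was the low one, and both Tcf1 arrays lay above the control array. Sfrp2 rose by 1.19 in Tcf1 cells against LMPPs (SE 0.20, 95% interval from 0.71 to 1.68, adjusted p = 0.0313, limma). It differed by 0.38 from control cells (95% interval from -0.11 to 0.87), which did not pass, and control cells minus LMPPs came to 0.81.

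Stromal markers were set beside Sfrp2, because the cultured cells had grown on OP9 and Sfrp2 is known as a product of mesenchymal cells. Of 22 measured stromal markers, 4 were higher and 0 lower in Tcf1 cells than in LMPPs, and 2 higher and 1 lower than in control cells. The mean of the stromal list was 7.56 and 7.79 in Tcf1 cells, 7.39 in control cells and 6.99 in LMPPs, so its 4 arrays stood in the same order as those of Sfrp2. The 4 that were higher than in LMPPs were Timp3 (3.75), Thbs1 (3.12), Bgn (2.25) and Fn1 (1.90), and against control cells Fn1 (1.80) and Bgn (1.52) were higher and Pdgfrb (-1.63) was lower. Bgn, a matrix proteoglycan, read 8.41 and 9.13 in Tcf1 cells, 7.25 in control cells and 6.52 in LMPPs. Col1a1, a fibrillar collagen, did not pass, with 8.38 and 8.29 in Tcf1 cells, 8.16 in control cells and 8.12 in LMPPs, and Dcn, Lum and Postn lay below the 25th percentile of each array. RMA values have no zero, so no marker could read 0. The part of stromal RNA in the Sfrp2 result was not tested.

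Dkk2, which binds Lrp5 and Lrp6, read 6.89 and 6.82 in Tcf1 cells, 6.44 in control cells and 6.41 in LMPPs. Both Tcf1 arrays were the high ones, but the differences of 0.45 from LMPPs (adjusted p = 0.257, limma) and 0.41 from control cells (adjusted p = 0.304, limma) did not pass. Sfrp1 read 6.15 and 6.32 in Tcf1 cells, 5.79 in control cells and 6.15 in LMPPs, and its difference from control cells of 0.44 did not pass (95% interval from 0.04 to 0.84). The 8 antagonists differed from control cells by 0.06 to 0.44, each with a positive sign, and none of the 8 passed. Of the 8, 7 read below the array's median gene on each array. The 25th percentile over all genes was also higher in the Tcf1 arrays than in the control array, as given above. Quantile normalization lowered the difference of Dkk2 from control cells to 0.34, and median centring lowered it to 0.37. The part of array scaling in the shared sign was not tested. Dkk1, Dkk3, Dkk4, Sfrp4 and Sfrp5 lay within 0.25 of both LMPPs and control cells.

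The 3 Dishevelled genes, which pass the signal from receptor to destruction complex, did not pass in either comparison. Dvl1 read 9.02 and 9.26 in Tcf1 cells, 9.45 in control cells and 9.22 in LMPPs. Dvl2 read 8.93 and 9.03 in Tcf1 cells, 9.32 in control cells and 8.77 in LMPPs. Dvl3 read 10.29 and 10.57 in Tcf1 cells, 10.73 in control cells and 10.38 in LMPPs. The control array was the high one for each, with Tcf1 cells lower by similar sizes (-0.31 for Dvl1, -0.34 for Dvl2 and -0.30 for Dvl3, SE 0.16 to 0.19). After quantile normalization, which gives all arrays the same distribution, these differences were -0.20, -0.23 and -0.19. After median centring they were larger, at -0.356, -0.382 and -0.345. The part of array scaling in them was not tested.

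None of the 6 genes of beta-catenin and its destruction complex passed, and 5 of them lay above the 75th percentile of each array. Ctnnb1, which encodes beta-catenin, read 11.41 and 11.47 in Tcf1 cells, 11.34 in control cells and 11.83 in LMPPs. The LMPP array was the high one, and the difference of -0.39 in Tcf1 cells had a 95% interval from -0.77 to -0.00 and an adjusted p of 0.337 (limma). The scaffold Axin1 differed by -0.07 from LMPPs and by -0.28 from control cells. The other scaffold, Apc, differed by -0.19 and -0.38, the kinase Gsk3a by -0.06 and -0.22, and its paralog Gsk3b by 0.10 and -0.23. Standard errors of these 4 genes ran from 0.17 to 0.21. As for the Dishevelled genes, the control array read highest for all 4, and none of these differences passed. After quantile normalization they differed from control cells by -0.17 (Axin1), -0.26 (Apc), -0.15 (Gsk3a) and -0.12 (Gsk3b). After median centring the differences were larger, at -0.32, -0.42, -0.26 and -0.28 in the same order. The part of array scaling was not tested here either.

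Ctnnbip1, also called ICAT, is a small protein that keeps beta-catenin from binding Tcf/Lef factors. It read 7.58 and 7.66 in Tcf1 cells, 6.88 in control cells and 7.86 in LMPPs. The control array stood below the other 3, and control cells minus LMPPs came to -0.99, just short of 2-fold. Tcf1 cells exceeded control cells by 0.74 (SE 0.16, 95% interval from 0.36 to 1.13), and this just missed the threshold (adjusted p = 0.0582, limma). It passed under 4 of 7 other settings of the test, with adjusted p-values from 0.0188 to 0.824 over the 7. The mean of the 18 macrophage markers was also lowest in control cells, at 8.09 and 8.35 in Tcf1 cells, 6.48 in control cells and 7.22 in LMPPs, Cd163 and Vsig4 lying below the 25th percentile of each array. The mean of the LMPP markers had the same order of arrays as Ctnnbip1, though single markers did not all follow it (Kit read 11.17 and 11.27 in Tcf1 cells, 11.39 in control cells and 9.68 in LMPPs). The part of either list in this difference was not tested.

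Of the 9 feedback genes, 0 passed against LMPPs, while 1 had an unadjusted p under 0.05 in limma, as 14.5% of all genes did. Against control cells 1 was lower in Tcf1 cells, 0 were higher and 8 did not pass, where 2.49% of all genes were lower and 1.90% higher. At an unadjusted p under 0.05, 3 of the 9 were lower and 0 higher, namely Apcdd1, Rnf43 and Znrf3 (limma). In either direction 14.1% of all genes stood there. Axin2, a scaffold of the destruction complex that the pathway induces, read 7.40 and 7.75 in Tcf1 cells, 7.86 in control cells and 6.98 in LMPPs. The LMPP array was the low one. Tcf1 cells minus LMPPs came to 0.59, which did not pass (95% interval from 0.12 to 1.06, adjusted p = 0.217, limma). Tcf1 cells minus control cells came to -0.29 (95% interval from -0.76 to 0.18) and did not pass. Control cells minus LMPPs came to 0.88, the largest positive difference of a member in that comparison. Znrf3, a ubiquitin ligase that removes Frizzled receptors from the surface, showed the same order. It read 9.23 and 9.37 in Tcf1 cells, 9.74 in control cells and 8.98 in LMPPs. Neither its difference of 0.33 from LMPPs nor that of -0.43 from control cells passed, and control cells minus LMPPs came to 0.76. The mean of the 13 T lineage markers had the same order of arrays as both genes, at 8.995 and 9.152 in Tcf1 cells, 10.59 in control cells and 7.49 in LMPPs. Single markers did not all follow it. Cd5 read 7.26 and 7.36 in Tcf1 cells, 8.31 in control cells and 8.79 in LMPPs, and Il7r 12.11 and 12.33, 11.51 and 9.27 in that order. The part of these markers in either gene was not tested.

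Apcdd1, a membrane protein that inhibits Wnt signalling, read 7.97 and 8.05 in Tcf1 cells, 8.93 in control cells and 8.30 in LMPPs. The control array was the high one, and Tcf1 cells lay below both other groups. Apcdd1 fell by 0.92 in Tcf1 cells against control cells (SE 0.16, 95% interval from -1.30 to -0.53, adjusted p = 0.0269, limma). Against LMPPs it differed by -0.29 and did not pass. Rnf43, the paralog of Znrf3, read 7.52 and 7.63 in Tcf1 cells, 8.01 in control cells and 7.77 in LMPPs. It was lower than control cells by a similar margin to Znrf3 (-0.44, 95% interval from -0.83 to -0.05, adjusted p = 0.28, limma), which did not pass.

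The other 5 feedback genes were flat over the 4 arrays. All 5 read below the array's median gene on each array, where a dim value can be background. Lgr5, a receptor for R-spondins, ranged from 6.32 to 6.49, and Nkd1, which binds Dishevelled, from 7.10 to 7.20. Nkd2, its paralog, ranged from 6.34 to 6.51. Notum, an enzyme that strips the lipid from Wnt ligands, ranged from 7.10 to 7.20, and Sp5, a transcription factor whose promoter window is shown above, from 6.55 to 6.69. The 95% intervals of these genes ran from -0.51 to 0.41 against LMPPs and from -0.42 to 0.44 against control cells.

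**Figure D4:**
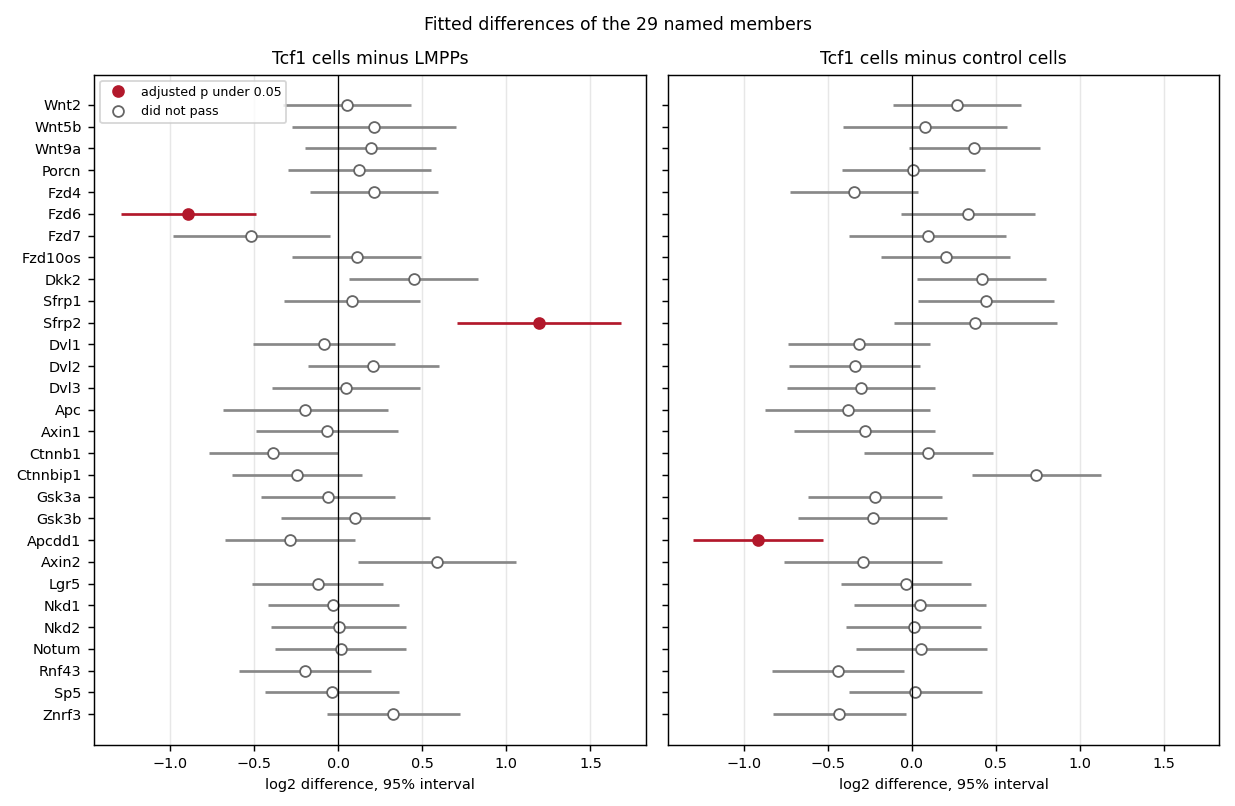
Fitted log2 differences (x axis, points) with 95% intervals from limma (bars) of 29 members, for Tcf1 cells minus LMPPs (left) and Tcf1 cells minus control cells (right). Filled points passed at an adjusted p under 0.05, which are Sfrp2 and Fzd6 on the left and Apcdd1 on the right.

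For context, 164 other genes of the pathway were measured, in lists of surface and secreted proteins, intracellular proteins, nuclear factors and cofactors, target genes, and the planar polarity and calcium branches. Of these, 7 rose, 3 fell and 154 did not pass in Tcf1 cells against LMPPs (6.10% passed, against 3.06% of all genes; median 0.01). Against control cells 6 were higher, 10 lower and 148 did not pass (9.76% passed, against 4.38% of all genes; median -0.04). Between control cells and LMPPs 10 of the 164 were at least 2-fold higher and 6 at least 2-fold lower, where 3.17% of all genes were higher and 2.36% lower.

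Of 35 other surface and secreted genes, Igfbp4, a secreted binding protein that can antagonise Wnt, rose against LMPPs and 34 did not pass. Igfbp4 read 12.09 and 12.20 in Tcf1 cells, 11.92 in control cells and 10.94 in LMPPs. Against control cells, Kremen1, a receptor for Dkk proteins, was lower (-1.47, adjusted p = 0.0127, limma), while Bambi (1.20) and Serpinf1 (0.82) were higher. Kremen1 read 8.82 and 9.25 in Tcf1 cells, 10.51 in control cells and 8.68 in LMPPs.

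Of 36 other intracellular genes, 0 passed against LMPPs in limma. Against control cells Cdh1 (-2.39) and Cxxc5 (-1.01) were lower and Ctnnd1 (2.37) was higher. Cdh1, the adhesion protein E-cadherin that binds beta-catenin at the membrane, read 7.57 and 7.82 in Tcf1 cells, 10.09 in control cells and 8.48 in LMPPs. Ctnnd1, the catenin p120 that binds cadherins, read 9.18 and 9.13 in Tcf1 cells, 6.78 in control cells and 9.55 in LMPPs. Control cells were thus highest for Cdh1 and lowest for Ctnnd1.

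Of 26 nuclear factors and cofactors, Lef1, a partner of beta-catenin from the same family as Tcf1, rose against LMPPs and 25 did not pass. It read 8.44 and 8.92 in Tcf1 cells, 10.59 in control cells and 6.93 in LMPPs, the same order of arrays as Axin2 and Znrf3. Against control cells Lef1 (-1.91) and Bcl9l (-0.97), a coactivator of beta-catenin, were lower, and the corepressor Ctbp2 (1.39) was higher. Of 33 other target genes, Lef1, Vegfa (1.28) and Gja1 (0.94) rose and Ccnd1 (-2.71) and Cd44 (-0.87) fell against LMPPs. Against control cells Cd44 (1.55) and Gja1 (0.93) were higher, Lef1 and Jun (-1.14) were lower, and 29 did not pass. Of 35 genes of the planar polarity and calcium branches, the kinase gene Prkca (2.58), Prickle1 (1.14) and Camk2d (0.99) rose and Plcb4 (-1.16) fell against LMPPs. Camk2a (-1.59), Prkcb (-1.24), Plcb4 (-1.23) and Prkca (-0.99) were lower than in control cells.

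**Figure D5:**
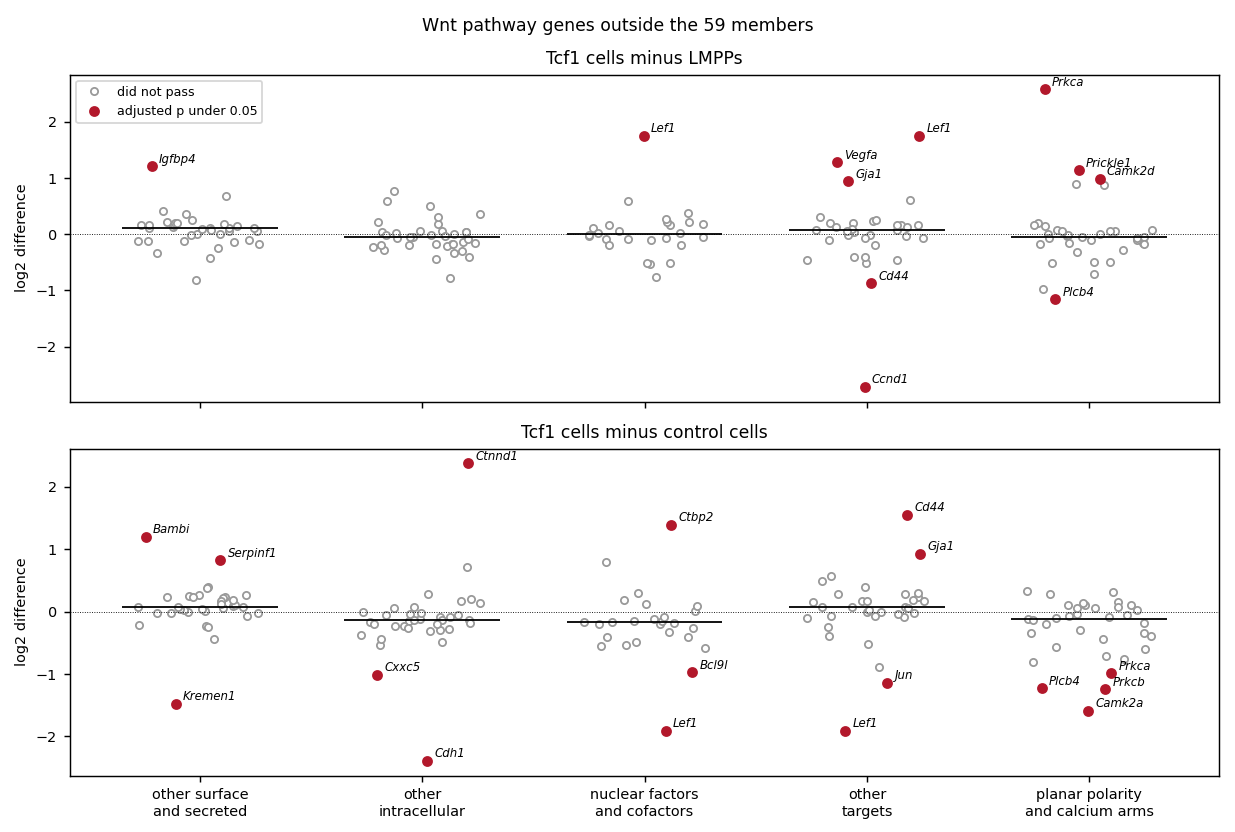
Fitted log2 differences (y axis) of Wnt pathway genes outside the 59 members, by list (x axis; bars are list medians), for Tcf1 cells minus LMPPs (top) and Tcf1 cells minus control cells (bottom). Filled, named points passed at an adjusted p under 0.05; Lef1 stands in 2 lists.

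The calls for Sfrp2, Fzd6 and Apcdd1 rest on limma's moderation and on the set of genes tested. Without moderation their adjusted p-values were 0.804, 0.777 and 0.824, and over all 35399 probe sets they were 0.373, 0.356 and 0.249. On simulated arrays of this design more of the calls were false than the adjusted p allows. Fewer genes were changed there than passed in these data, so the share of false calls among the real calls is not known from it.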

How the data were processed

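Tcf1 cells (2 arrays), control cells (1) and LMPPs (1) were measured on Affymetrix whole-transcript arrays, and the deposited values are log2 signals per probe set, made by the authors with RMA and Partek 6.5, per the submitters' processing notes. The log base was read from RMA and the range of values, and a genome build was not given in the sources used here. RMA scales arrays to each other, so a shift shared by all genes is lost.

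Of 35399 probe sets, 21789 had 1 gene symbol. For genes with several, the one with the highest mean was used, which left 19938 genes without any filter. The group-mean model ran in R 4.3.3 with limma 3.58.1 (eBayes, prior of 5.78 degrees of freedom). Intervals come from this fit. On simulated arrays of this design some genes were given a change of at least 2-fold. The fit returned the direction of each such change that it called, and smaller changes were not simulated. In each draw the share of false calls exceeded the nominal level of the adjusted p. Fewer genes were changed in the simulation than passed in these data, and genes were drawn independently, so that share need not hold here. The number of arrays limits the precision. Named members are those past a test, those at least 2-fold apart between control cells and LMPPs, the 2 with the largest difference per role and comparison, and all of 4 roles. Members named beyond these (Fzd3, Lrp5, Lrp6, Wnt4, Wnt7a, Dkk1, Dkk3, Dkk4, Sfrp4 and Sfrp5) were chosen after their values were seen, as were the stromal examples and the promoter windows shown. From each other list, up to 4 genes past the test were named per comparison, and Cd44, named against control cells, was also given against LMPPs beyond that limit. Members, lists and tests were chosen with earlier results of these data known. Alternatives were quantile normalization, median centring, a filter on dim genes, averaged probe sets, all probe sets, no moderation, a trended prior, a 1.5-fold minimum and leaving out each Tcf1 replicate.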

Additional observations from a re-analysis of the deposited data

How the results depend on the processing

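The direction of the calls for Sfrp2, Fzd6 and Apcdd1 was the same under each alternative that gave a value. Only quantile normalization, median centring and a left-out replicate could alter it, because the other settings left these fitted differences unchanged. The 2 members past the test against LMPPs were Sfrp2 and Fzd6 under 5 of 7 alternatives, and 0 passed over all probe sets and without moderation, where 3 and 2 members had an unadjusted p under 0.05 in limma. Against control cells 1 passed, and 2, Apcdd1 and Ctnnbip1, passed after median centring, over genes above the 25th percentile, with averaged probe sets and with a trended prior. There too 0 passed over all probe sets and without moderation (2 and 1 at an unadjusted p under 0.05 in limma). The genes called over the whole table numbered 610 against LMPPs (1456 after median centring, 1196 above the 25th percentile, 936 with a trended prior, 12 without moderation and 0 over all probe sets), and 874 against control cells (1646 after median centring, 1437 above the 25th percentile, 12 without moderation and 0 over all probe sets). With a 1.5-fold minimum, 7 members were apart between control cells and LMPPs (11.9%, against 13.5% of all genes), namely Fzd6, Ctnnbip1, Axin2, Sfrp2, Znrf3, Apcdd1 and Fzd7. Members' medians stayed near 0. With 1 Tcf1 replicate left out, the median against LMPPs ran from -0.0410 to 0.0284 and against control cells from 0.0058 to 0.0248, where it was -0.0406 after quantile normalization and -0.0320 after median centring. Leaving out a replicate left no residual degree of freedom, so no test: Sfrp2 then differed by 1.00 to 1.38 and Fzd6 by -0.97 to -0.81 from LMPPs, and Apcdd1 by -0.96 to -0.87 from control cells. Of the 29 named members, up to 7 changed sign in a comparison under quantile normalization, median centring or a left-out replicate, each with a difference of at most 0.19 and none past the test. The causes of these changes were not tested. No paired analysis was possible because only Tcf1 cells have more than 1 replicate.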
